A study of Mus musculus with 22 samples.

Results

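Hyaluronan synthesis, breakdown and binding was followed in inguinal white adipose tissue (IWAT) through 9 genes: the synthases Has1, Has2 and Has3, the hyaluronidases Hyal1 and Hyal2, the receptors Cd44 and Hmmr, and the hyaluronan-binding matrix genes Tnfaip6 and Vcan. All 9 have a row among the 23420 gene symbols of the count table, and all 9 passed the filter on low counts, as did 14458 genes in all. Has1 and Cd44 were selected on their higher level in tumor-associated than in control fat, so that their tumor changes are described here without a test, while the other 7 were chosen for their function. The libraries came from 11 female wildtype C57Bl/6 mice, 5 lean mice on regular chow and 6 obese mice on high fat diet (HFD) for 16 weeks. At an age of about 20 weeks every mouse received E0771 cells, a breast cancer line from a C57Bl/6 mouse, in PBS and Matrigel in its left fat pad (tumor-associated IWAT) and PBS and Matrigel without cells in its right fat pad (control IWAT), and both pads were taken 2 weeks later. The control pads are therefore pads of tumor-bearing mice, and E0771 is a single line. The lymph node and the fat bordering the tumor had been dissected away according to the study's methods.

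Hyaluronan is a long unbranched sugar polymer of the extracellular matrix. Synthases in the plasma membrane build it from UDP-glucuronic acid and UDP-N-acetylglucosamine and extrude it from the cell, hyaluronidases cut it, and cells read it through receptors such as CD44. Versican and the TNF-induced protein TSG-6 (gene Tnfaip6) attach to the polymer and organize it, and a hyaluronan and versican matrix is known from inflamed and growing tissue, fat included.

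Library depth was 5759775 to 8598108 counts on genes. The adipocyte marker genes were present in every library, with a summed level of 1701 to 21906 CPM (counts relative to the TMM-normalized library size) over 7 genes. In obese control IWAT the libraries of mice 1 and 3 stood apart, with 5 B cell genes summing to 471 and 438 CPM and 7 T cell genes to 289 and 288 CPM, against at most 10.5 and 13.4 CPM in the other 4 libraries of that group. The tumor-associated pad of obese mouse 3 followed with 110 and 79.2 CPM, and the control pad of lean mouse 2 had 52.8 and 51.0 CPM. In obese tumor-associated IWAT the library of mouse 4 had the lowest adipocyte sum of all (1701 CPM) and the highest sum of 10 germline and embryonic genes (998 CPM, against 40.0 to 509 in the other 5 obese tumor-associated libraries, 5.98 to 85.6 in obese control and at most 9.08 in lean libraries). These 3 libraries are named below where a value turns on them.

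Tumor-associated IWAT had more Has1, Cd44, Hmmr, Tnfaip6 and Vcan than control IWAT in both diets, while neither hyaluronidase passed the test in either. Of the 7 members chosen for their function, 3 rose in lean mice (Hmmr, Tnfaip6 and Vcan), where 4.18% of all genes tested were called and 3.27% were called higher (edgeR, adjusted p under 0.05). In obese mice 4 of the 7 rose (Has2, Hmmr, Tnfaip6 and Vcan). There 54.5% of all genes were called and 26.8% were called higher, so that the obese count stands against a much higher background than the lean one. The values of Hmmr, Tnfaip6 and Vcan did not overlap between the lean groups, as for 5.33% of all genes in the direction of higher in the tumor-associated pads, and those of Hmmr and Vcan did not overlap between the obese groups, as for 9.99%. In bulk tissue, fewer cells of a type and less RNA per cell cannot be told apart.

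**Figure D1:**
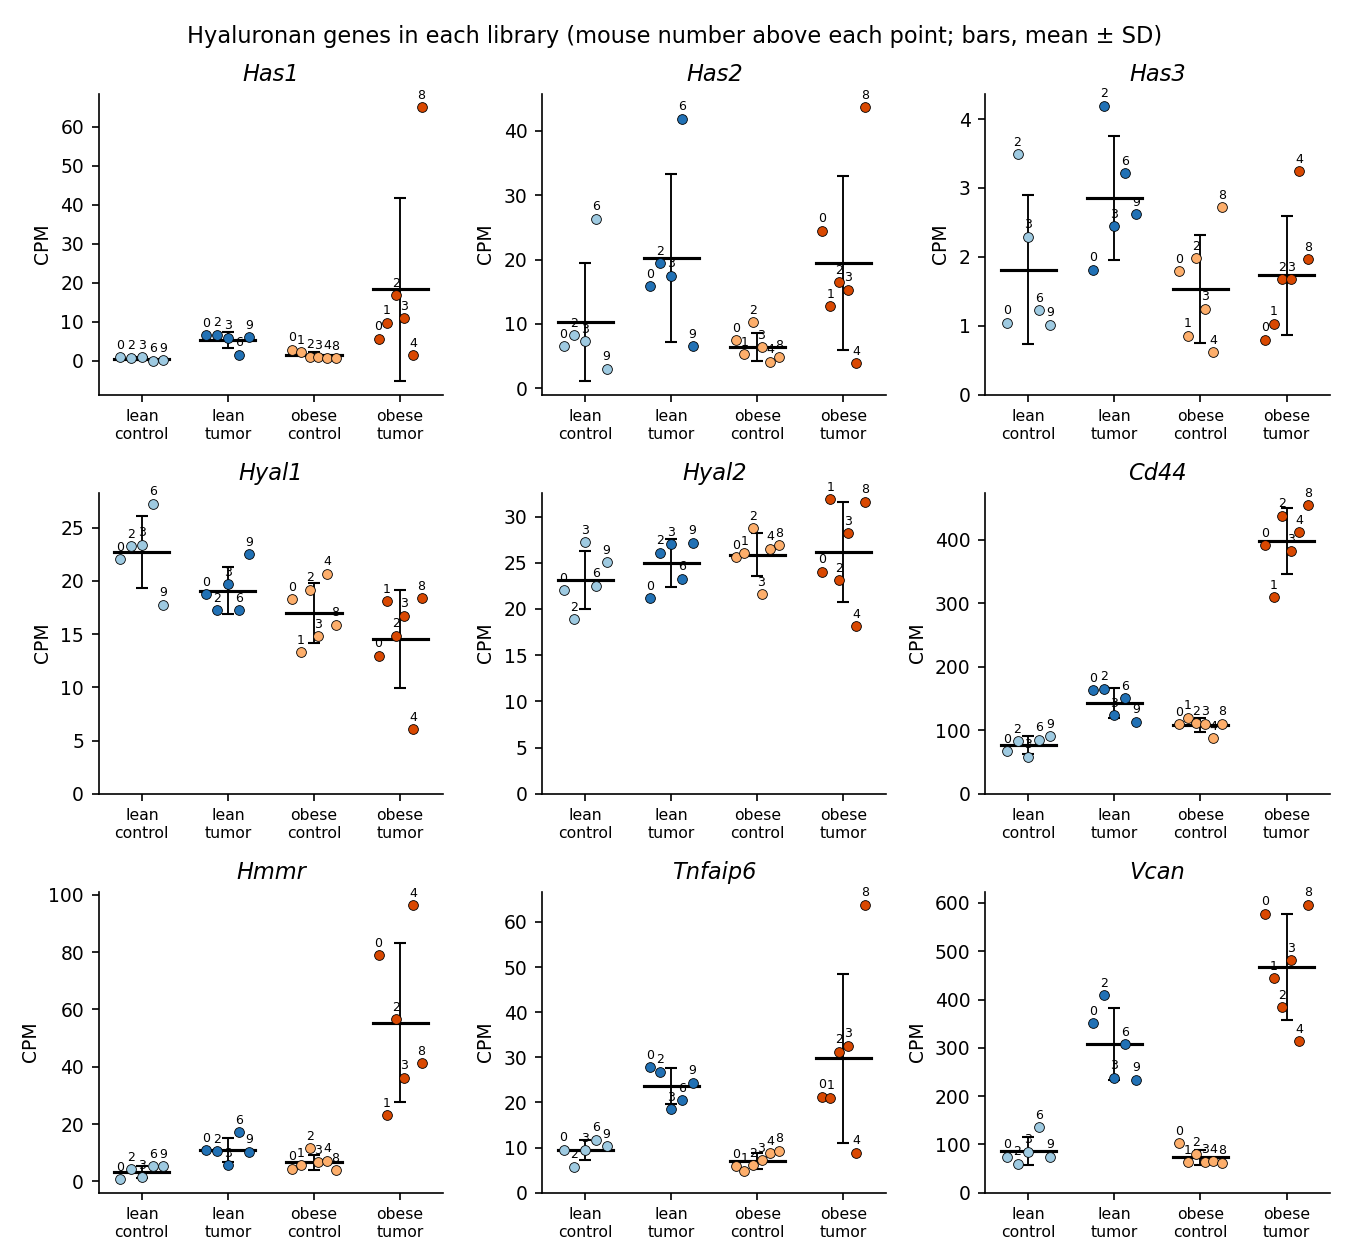
Level of each of the 9 genes in CPM (vertical axis) in every library, by diet and pad; points carry the mouse number, horizontal lines are group means and error bars the SD (5 lean, 6 obese mice). Cd44, Hmmr and Vcan of obese tumor-associated IWAT all lie above obese control IWAT, Hyal1 and Hyal2 of the 4 groups overlap, and mouse 4 has the lowest obese tumor-associated value in 6 of the 9 genes.

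**Figure D2:**
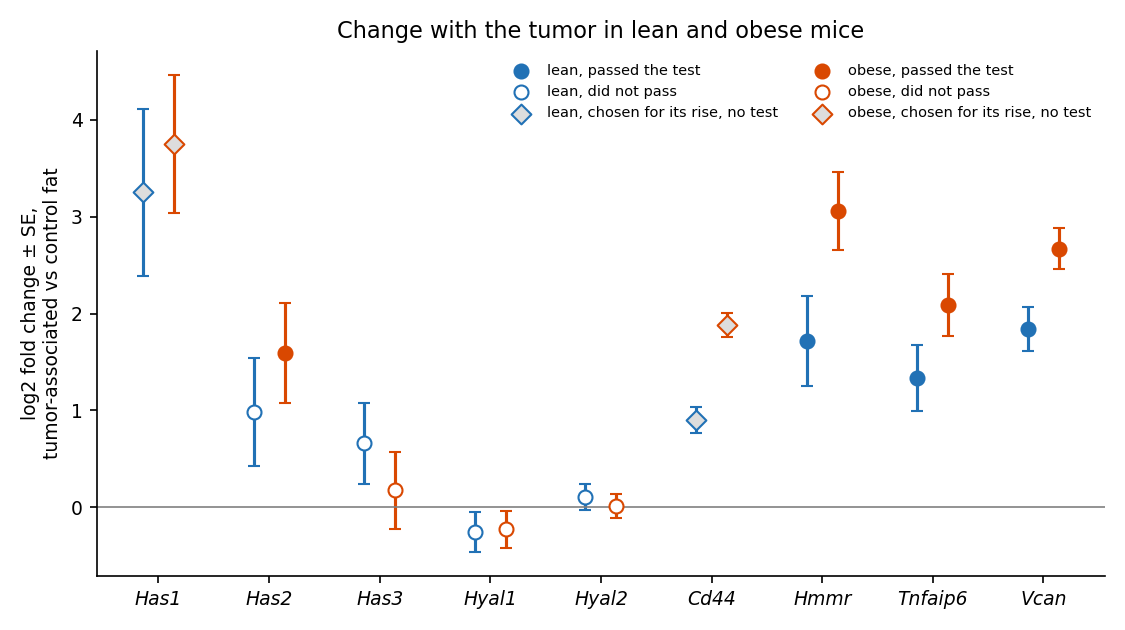
Tumor change on the log2 scale, tumor-associated over control pads (vertical axis), for the 9 genes in lean (blue) and obese (orange) mice, with SE from edgeR. Filled circles passed an adjusted p of 0.05 and open circles did not; grey diamonds are Has1 and Cd44, which have no test because they were picked for this change. Vcan shows the highest of the tested changes in lean mice and Hmmr in obese mice.

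Has1 was the member with the highest fold change in both diets and the lowest level per kb of exon in lean control fat. The gene lies on the minus strand of chr17:17843323-17855205 (mm10) and encodes 1 of the 3 hyaluronan synthases. In lean control IWAT its level was 0.812, 0.699, 0.918, 0 and 0.169 CPM in mice 0, 2, 3, 6 and 9. These values are 0 to 7 counts per library, and the count of 0 in mouse 6 allows a level of up to 0.527 CPM (counting error only). In the tumor-associated pads of the same mice it was 6.51, 6.68, 5.83, 1.54 and 6.02 CPM, above the control pad in 5 of 5 mice and above every lean control library. In obese mice the control pads ranged from 0.572 to 2.77 CPM (median 0.932) and the tumor-associated pads from 1.35 to 65.1 CPM (median 10.3), with the tumor-associated pad higher in 6 of 6 mice and an overlap between the groups. The lowest tumor-associated value was from mouse 4 and the highest from mouse 8. The fold changes were 9.52 in lean mice (log2 3.25, SE 0.86) and 13.5 in obese mice (log2 3.75, SE 0.71), and the obese value was log2 2.71 without the tumor-associated pad of mouse 8 and 3.10 with the mouse as a block. Against lean tumor-associated IWAT, Has1 was higher in obese tumor-associated IWAT by 3.43-fold (log2 1.78, SE 0.68, edgeR adjusted p = 0.0358). The gene was picked for its rise in the same tumor-associated libraries, so that this p is not independent of the choice. Without the tumor-associated pad of mouse 8 that difference was log2 0.74 with an adjusted p of 0.278, and the call was also lost without each of the 5 lean tumor-associated libraries in turn (adjusted p = 0.0501 to 0.0851). In control IWAT the diets differed by log2 1.28 (SE 0.89, adjusted p = 0.352).

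The promoter of Has1 is shown because it carries the rarest of the motifs searched, a full cAMP response element. The sequence is the RefSeq promoter on GRCm38.p6, chr17:17855159-17855438, minus strand, from 250 bases before to 30 after the start site, with motifs in capitals.
Has1: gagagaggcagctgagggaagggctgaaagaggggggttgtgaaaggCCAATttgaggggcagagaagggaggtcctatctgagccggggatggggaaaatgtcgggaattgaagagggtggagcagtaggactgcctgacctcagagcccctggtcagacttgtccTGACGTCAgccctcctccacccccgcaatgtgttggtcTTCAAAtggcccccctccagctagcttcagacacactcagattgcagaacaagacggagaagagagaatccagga
The capitals mark, from left to right, a CCAAT box at positions -203 to -199, the cAMP response element TGACGTCA (CRE) at -83 to -76 and, on the reverse strand, a cell cycle homology region (CHR, TTTGAA) at -45 to -40, counted from the start site. Both strands of 32851 RefSeq promoters of this length were searched for 6 motifs. The CCAAT box (its letters are its name) was found in 36.1% of them, the CHR in 17.2%, and the core promoter box spelled TATAAA in 13.1%. The AP-1 motif, written with 1 free base as TGANTCA, was found in 7.46%, the kappaB consensus in 4.28% and the CRE in 1.74%. The AP-1 and CRE letters resemble each other, but neither holds the other. The CRE was added to the search after the Has1 sequence had been read. A match describes letters and is not a bound site. Of the 9 members 7 had a promoter in the table. Has2 and Has3 had none.

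Has2, the synthase known as the main one in connective tissue, was the most abundant synthase in control fat. It lies on chr15:56665627-56694539, minus strand, and 4.30% of its exon bases are shared with the antisense gene Has2os, so that reads there could not be told apart if strand was not used in counting. Its level in lean control IWAT was 6.50, 8.21, 7.34, 26.4 and 3.05 CPM in mice 0, 2, 3, 6 and 9, and in lean tumor-associated IWAT 15.9, 19.4, 17.5, 41.9 and 6.48 CPM. Each lean mouse had more Has2 in the tumor-associated pad (5 of 5), but the mice differed widely and kept their order, with mouse 6 highest and mouse 9 lowest in both pads. The unpaired fit gave log2 0.99 (SE 0.55, adjusted p = 0.423), and the fit with the mouse as a block log2 1.10 (adjusted p = 0.0809). Over all 30 alternatives the adjusted p ranged from 0.0809 to 0.810, and the change was log2 0.53 without the tumor-associated and 1.69 without the control pad of mouse 6. In obese mice Has2 rose 3.02-fold (log2 1.59, SE 0.52, adjusted p = 0.0135), from 4.14 to 10.3 CPM (median 5.82) in control pads to 3.92 to 43.7 CPM (median 15.9) in tumor-associated pads. It was higher in 5 of 6 mice, and the exception was mouse 4. Without the tumor-associated pad of mouse 8 the rise was log2 1.18 with an adjusted p of 0.0508. The diets did not differ beyond the spread between mice in tumor-associated IWAT (log2 -0.06, SE 0.52, adjusted p = 0.931) or in control IWAT (log2 -0.67, SE 0.54, adjusted p = 0.432).

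Has3, the remaining synthase (chr8:106870242-106884566, plus strand), lay between 0.613 and 4.19 CPM in the 22 libraries. Its values were 1.04, 3.49, 2.29, 1.23 and 1.02 CPM in lean control and 1.82, 4.19, 2.44, 3.21 and 2.62 CPM in lean tumor-associated IWAT of mice 0, 2, 3, 6 and 9, or 6 to 27 counts. The change was log2 0.66 (SE 0.42, adjusted p = 0.518) in lean mice and 0.17 (SE 0.39, adjusted p = 0.730) in obese mice, whose pads ranged from 0.613 to 2.72 and from 0.801 to 3.24 CPM. Obese tumor-associated IWAT differed from lean by log2 -0.71 (SE 0.40, adjusted p = 0.148), and by -0.99 (adjusted p = 0.0410) without both pads of mouse 4, the library with the highest obese tumor-associated Has3. Chtf8, on the other strand, shares 5.52% of the exon bases.

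Set side by side per kilobase of exon, the synthases changed their proportions with the tumor. Has1 made up a mean of 5.68% ± 3.87 (SD, n = 5) of the synthase CPM per kb in lean control, 22.9% ± 13.4 (n = 5) in lean tumor-associated, 14.6% ± 7.92 (n = 6) in obese control and 36.3% ± 16.2 (n = 6) in obese tumor-associated IWAT. The share of Has2 was 81.2%, 69.3%, 73.5% and 56.5% in the same order. By this measure Has2 exceeded Has1 in every library except the obese tumor-associated pad of mouse 8, where Has1 held 57.5%. The shares depend on the length used, here all exon bases (4518 for Has1, 4237 for Has2). The longest Has1 transcript has 3541 bases and that of Has2 4237, a length that would raise the Has1 share. In CPM, Has1 also exceeded Has2 in the obese tumor-associated pad of mouse 2 (16.8 against 16.5). The summed synthase level ranged from 0.916 to 6.42 CPM per kb in lean control and from 1.24 to 2.96 in obese control, and from 3.27 to 10.7 and from 1.73 to 25.0 in the tumor-associated pads. Because Has1 was picked for its change, these shares are a description with no test.

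**Figure D3:**
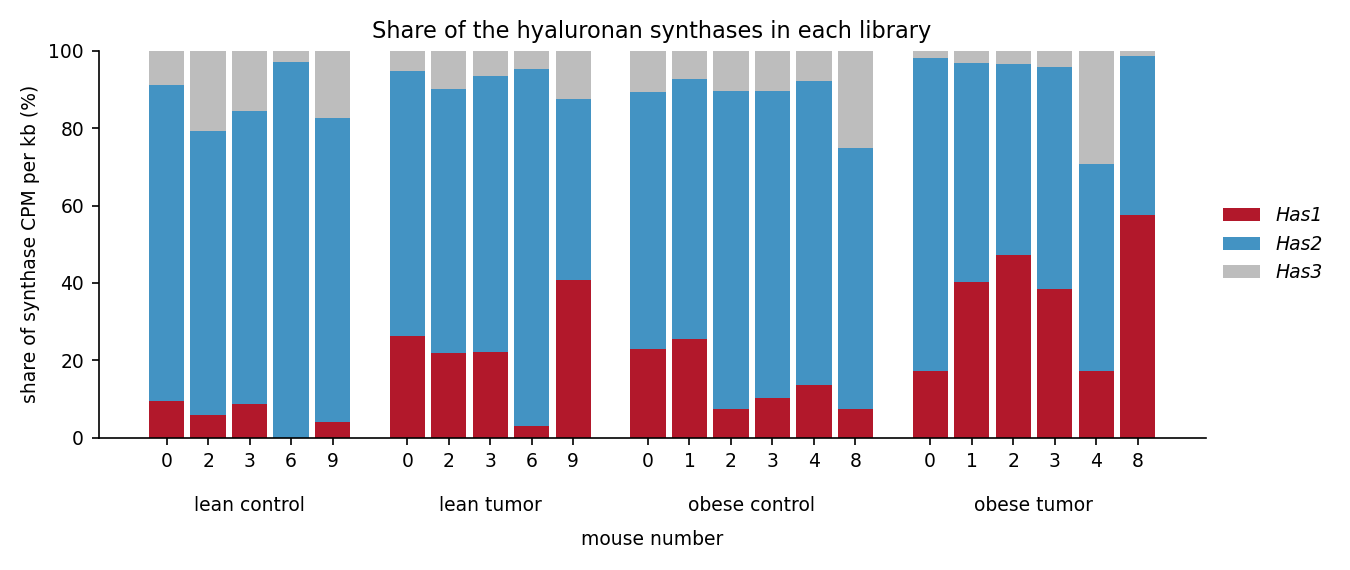
Share of Has1, Has2 and Has3 (vertical axis, percent of the synthase level in CPM per kb of exon) in every library, 1 bar a library, by group and mouse number. Has2 fills most of every control bar, and the Has1 segment reaches 57.5% in the obese tumor-associated pad of mouse 8 and 3.18% in the lean tumor-associated pad of mouse 6.

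The hyaluronidases moved little. HYAL2, a membrane-anchored enzyme, cuts long hyaluronan into fragments that HYAL1 breaks down further in lysosomes, and both genes lie side by side on chromosome 9 (Hyal2, chr9:107567945-107572779; Hyal1, chr9:107576927-107581710; both plus strand). Hyal2 was at 22.04, 18.9, 27.2, 22.5 and 25.1 CPM in lean control and 21.2, 26.1, 27.0, 23.3 and 27.2 CPM in lean tumor-associated IWAT of mice 0, 2, 3, 6 and 9. The obese values were 21.6 to 28.7 CPM in control and 18.1 to 31.9 CPM in tumor-associated pads, with the lowest from mouse 4. All 4 groups overlapped, and the tumor changes were log2 0.11 (SE 0.14, adjusted p = 0.873) in lean and 0.01 (SE 0.13, adjusted p = 0.930) in obese mice. Hyal1 was at 22.04, 23.2, 23.4, 27.3 and 17.8 CPM in lean control and 18.8, 17.2, 19.7, 17.2 and 22.5 CPM in lean tumor-associated IWAT, lower in 4 of 5 mice. Its obese values were 13.3 to 20.7 CPM (median 17.1) in control and 6.08 to 18.4 CPM (median 15.8) in tumor-associated pads. The tumor changes were log2 -0.25 (SE 0.21, adjusted p = 0.681) and -0.23 (SE 0.19, adjusted p = 0.317). Between the diets Hyal1 differed in control IWAT by log2 -0.42 (SE 0.20, adjusted p = 0.153), and by -0.49 (adjusted p = 0.0133) without both pads of mouse 4. It was also called without the tumor-associated pad of mouse 4 alone (log2 -0.42, adjusted p = 0.0252). The row is uncertain, since 50.8% of the exon bases of Hyal1 are shared with Naa80 and 4.21% with Hyal3 on the same strand.

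Cd44, the main cell surface receptor of hyaluronan on leukocytes, fibroblasts and many cancer cells, was the member with the highest level per kb in obese tumor-associated IWAT. The gene lies on chr2:102811141-102901665, minus strand, with 19 exon blocks. Lean control libraries held 67.3, 83.0, 58.4, 85.1 and 90.9 CPM in mice 0, 2, 3, 6 and 9 and lean tumor-associated libraries 163, 166, 123, 151 and 114 CPM. Obese control libraries ranged from 87.2 to 120 CPM (median 110) and obese tumor-associated libraries from 310 to 455 CPM (median 402). The tumor-associated pad was higher in all 11 mice and the groups did not overlap in either diet. The fold changes were 1.86 in lean mice (log2 0.90, SE 0.13) and 3.68 in obese mice (log2 1.88, SE 0.13), and their difference, log2 0.98 (SE 0.18), has no test for the same reason. Between the diets, Cd44 was 2.78-fold higher in obese tumor-associated IWAT (log2 1.47, SE 0.13, adjusted p = 5.53e-07), with no overlap of the groups. It was 1.41-fold higher in obese control IWAT (log2 0.49, SE 0.13, adjusted p = 0.0130), where mouse 4 overlapped the lean mice. The gene was picked for its tumor change in the same libraries, so that these p are not independent of the choice. Without the control pads of mice 1 and 3, in which B and T cell genes stood apart, the difference in control IWAT was log2 0.43 with an adjusted p of 0.0563.

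The Cd44 promoter is shown as that of a member with the same direction as Has1 and none of the 6 motifs in its window (RefSeq, GRCm38.p6, chr2:102901636-102901915, minus strand, no capitals since no motif matched).
Cd44: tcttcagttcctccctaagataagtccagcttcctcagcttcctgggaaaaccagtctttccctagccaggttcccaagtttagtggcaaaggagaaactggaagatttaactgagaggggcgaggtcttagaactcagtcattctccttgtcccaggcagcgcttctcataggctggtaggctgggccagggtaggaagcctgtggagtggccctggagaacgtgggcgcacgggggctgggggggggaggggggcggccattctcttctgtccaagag
No match says only that these letters are not in this window.

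Most of the macrophage genes listed moved in the same direction as Cd44. Of 9 macrophage genes 6 were called higher in lean (3.27% of all genes) and 7 in obese tumor-associated IWAT (26.8%). The median of Mertk was lower in obese tumor-associated than in obese control pads (56.8 against 67.8 CPM). The summed level of the 9 was 673 to 1459, 1485 to 3193, 1129 to 1518 and 1375 to 4306 CPM in lean control, lean tumor-associated, obese control and obese tumor-associated IWAT. Cd44 equalled 5.16% to 10.2% of that sum in lean tumor-associated and 7.19% to 29.98% in obese tumor-associated IWAT. The highest ratio was from mouse 4, which had the lowest macrophage sum of its group (1375 CPM) and a Cd44 level of 412 CPM. Neutrophil genes were low, with 15.3 to 28.5 CPM over 6 genes in obese tumor-associated IWAT. In each diet 1 of 2 tested was called higher, beside 3.27% of all genes in lean and 26.8% in obese mice. Obese tumor-associated IWAT also had higher calls for 10 of 10 germline and embryonic genes, both against obese control and against lean tumor-associated IWAT (26.8% and 24.7% of all genes). Obese against lean control IWAT had higher calls for 7 of the 10 (9.54% of all genes). That list had been made after its values in these data were seen, so that its counts are a description only. The proliferation genes described with Hmmr below were called higher, 12 of 12, in obese tumor-associated IWAT against obese control and against lean tumor-associated IWAT. The shares of all genes called higher there were 26.8% and 24.7%. Over the 22 libraries Cd44 and Hmmr correlated with r = 0.935, and with r = 0.548 after group means were removed. The part of these cell types, of dividing cells or of E0771 cells in the Cd44 values was not tested.

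Hmmr, which encodes RHAMM, a hyaluronan receptor that is also a mitotic spindle protein, showed the highest tested rise in obese mice. It lies on chr11:40701395-40733422, minus strand. Its level was 0.812, 4.19, 1.53, 5.27 and 5.25 CPM in lean control and 10.9, 10.6, 5.70, 17.1 and 10.3 CPM in lean tumor-associated IWAT of mice 0, 2, 3, 6 and 9. In obese mice it was 4.01 to 11.6 CPM (median 6.15) in control and 22.996 to 96.3 CPM (median 48.9) in tumor-associated pads. Neither pair of groups overlapped. Hmmr rose 3.28-fold in lean mice (log2 1.71, SE 0.46, adjusted p = 0.0399) and 8.33-fold in obese mice (log2 3.06, SE 0.40, adjusted p = 1.40e-05). The lean call was lost in 10 of the 22 fits that left out 1 library, those without lean control mouse 0, 2, 3 or 6, lean tumor-associated mouse 0, 2, 6 or 9, obese control mouse 3 or obese tumor-associated mouse 2 (adjusted p = 0.0505 to 0.124), with log2 1.43 to 1.93 over all 22. Obese tumor-associated IWAT held 5.06-fold more Hmmr than lean (log2 2.34, SE 0.42, adjusted p = 0.000198), again without overlap, and in control IWAT the diets differed by log2 0.99 (SE 0.45, adjusted p = 0.136).

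Hmmr followed the cell division genes. Over the 22 libraries the genes most like it in log2 CPM were Casc5 (r = 0.988), Top2a (r = 0.987) and Kif4 (r = 0.986), all of them genes of chromosome segregation, among 14381 genes searched. Top2a is also in the proliferation list. The correlations remained at 0.954 to 0.967 after the 4 group means were removed. The libraries share groups, depth and mice, and no p is given. Of 12 proliferation genes 1 was called higher in lean (3.27% of all genes) and 12 in obese tumor-associated IWAT (26.8%). All 12 were called between the diets in tumor-associated pads, higher in the obese mice (24.7% of all genes). Their sum was 53.8 to 297, 198 to 664, 165 to 387 and 677 to 3013 CPM in lean control, lean tumor-associated, obese control and obese tumor-associated IWAT. Hmmr was 1.51% to 2.83%, 2.58% to 3.68%, 2.26% to 3.05% and 3.20% to 3.97% of it. In the obese tumor-associated pads mouse 4 had the highest proliferation sum, the highest Hmmr and the highest germline sum, and mouse 1 the lowest of all 3. The part of dividing cells, or of E0771 cells in the pad, in the Hmmr values was not tested.

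**Figure D4:**
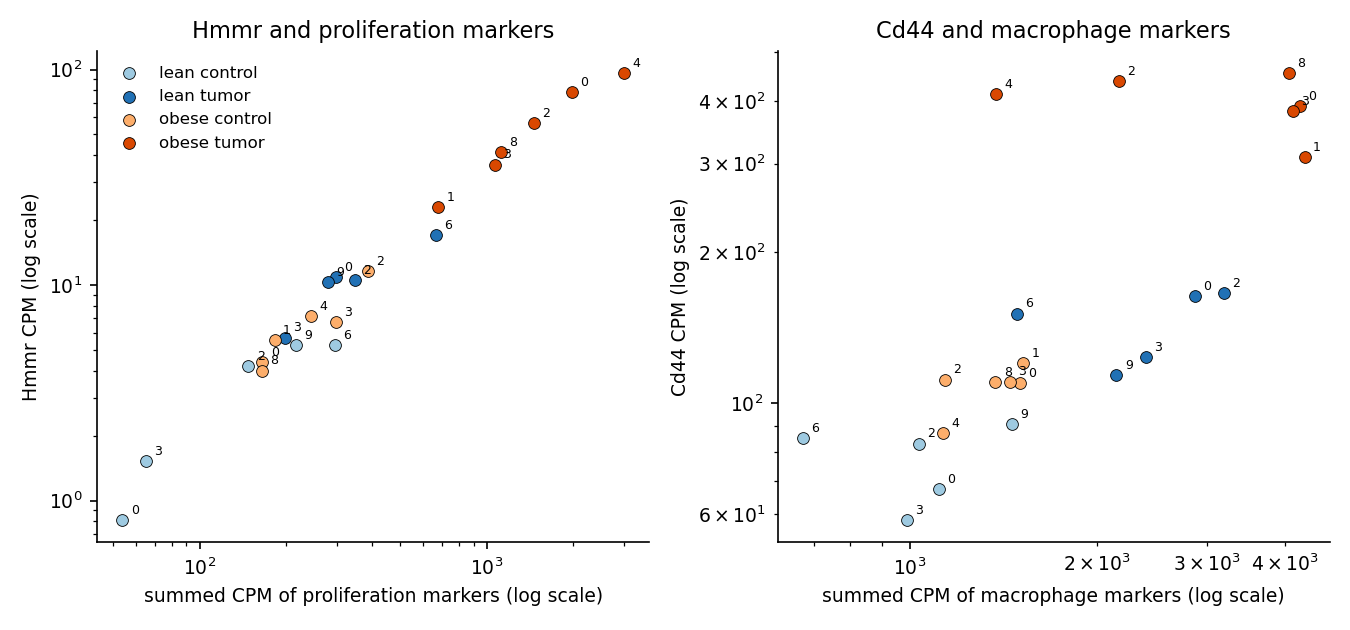
Left, Hmmr (vertical axis, CPM, log scale) against the summed CPM of 12 proliferation genes (horizontal axis, log scale); right, Cd44 against the summed CPM of 9 macrophage genes on the same kind of axes; 1 point a library, coloured by group and labelled with the mouse number. Hmmr rises with the proliferation sum over all groups. It equals 3.20% to 3.97% of that sum in obese tumor-associated IWAT, above obese control (2.26% to 3.05%) and lean control IWAT (1.51% to 2.83%). Cd44 of obese tumor-associated IWAT lies between 310 and 455 CPM over macrophage sums from 1375 to 4306 CPM.

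The Hmmr promoter is shown for its CCAAT boxes (RefSeq, GRCm38.p6, chr11:40733408-40733687, minus strand).
Hmmr: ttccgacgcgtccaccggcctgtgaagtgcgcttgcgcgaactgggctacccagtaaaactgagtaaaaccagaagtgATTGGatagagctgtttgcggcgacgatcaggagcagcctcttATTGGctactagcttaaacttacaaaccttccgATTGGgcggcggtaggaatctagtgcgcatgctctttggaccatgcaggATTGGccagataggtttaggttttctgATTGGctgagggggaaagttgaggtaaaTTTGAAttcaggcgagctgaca
The capitals mark 5 CCAAT boxes, all on the reverse strand and read here as ATTGG, at positions -172, -129, -96, -47 and -20, and a CHR at 9 to 14 bases after the start site. Of the 32851 promoters of this length 85, or 0.259%, hold 5 or more CCAAT boxes. The minimum of 5 is the number found in Hmmr itself, so that this share is a description and no test. Repeated CCAAT boxes with a CHR are known from promoters of cell division genes.

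Tnfaip6 encodes TSG-6, a secreted protein induced by inflammatory signals that transfers heavy chains onto hyaluronan. The gene lies on chr2:52038009-52056686, plus strand. Its level was 9.51, 5.77, 9.49, 11.8 and 10.3 CPM in lean control and 27.8, 26.9, 18.6, 20.6 and 24.4 CPM in lean tumor-associated IWAT of mice 0, 2, 3, 6 and 9, with no overlap. In obese mice it was 4.86 to 9.30 CPM (median 6.65) in control and 8.92 to 63.8 CPM (median 26.3) in tumor-associated pads, where mouse 4 alone overlapped the controls and mouse 8 was highest. Tnfaip6 rose 2.52-fold in lean mice (log2 1.33, SE 0.34, adjusted p = 0.0304) and 4.24-fold in obese mice (log2 2.09, SE 0.32, adjusted p = 4.69e-05), and the tumor-associated pad was higher in all 11 mice. The lean call was lost in 7 of the 22 fits without 1 library, those without lean control mouse 0, 2, 3 or 6 or lean tumor-associated mouse 0, 2 or 9 (adjusted p = 0.0526 to 0.104), with log2 1.20 to 1.43 over all 22. Between the diets it differed by log2 0.33 (SE 0.31, adjusted p = 0.396) in tumor-associated and -0.42 (SE 0.33, adjusted p = 0.426) in control IWAT.

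Its promoter is shown for an AP-1 site, the motif of Fos and Jun (RefSeq, GRCm38.p6, chr2:52037863-52038142, plus strand).
Tnfaip6: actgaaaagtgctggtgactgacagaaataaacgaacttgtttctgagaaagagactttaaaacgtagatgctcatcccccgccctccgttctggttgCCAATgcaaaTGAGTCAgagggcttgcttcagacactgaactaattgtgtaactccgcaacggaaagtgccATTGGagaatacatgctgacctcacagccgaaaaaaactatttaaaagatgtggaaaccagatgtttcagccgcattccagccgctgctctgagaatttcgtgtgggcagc
The capitals mark a CCAAT box at -152 to -148, the AP-1 motif TGAGTCA at -142 to -136 and a CCAAT box on the reverse strand at -81 to -77. Of the 7 members searched only Tnfaip6 matched AP-1, which 7.46% of all promoters hold. Vcan and Hyal1 each hold 1 CCAAT box, and Hyal2 none of the 6 motifs as spelled in the search. The Hyal2 window does hold gggaatcccc, which resembles the kappaB motif but differs from the spelling searched.

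Vcan encodes versican, the large chondroitin sulfate proteoglycan that binds hyaluronan through its globular end. The gene lies on chr13:89655312-89742509, minus strand. Its level was 74.7, 60.3, 84.8, 136 and 74.8 CPM in lean control and 351, 410, 238, 307 and 234 CPM in lean tumor-associated IWAT of mice 0, 2, 3, 6 and 9. In obese mice it was 62.2 to 103 CPM (median 65.4) in control and 314 to 597 CPM (median 463) in tumor-associated pads. The groups did not overlap in either diet. Vcan rose 3.58-fold in lean mice (log2 1.84, SE 0.22, adjusted p = 7.62e-05) and 6.37-fold in obese mice (log2 2.67, SE 0.21, adjusted p = 1.38e-07). Per kb it was level with Cd44 in lean tumor-associated IWAT (21.3 ± 5.19 against 21.1 ± 3.48 CPM per kb, SD, n = 5), while in obese tumor-associated IWAT the values were 32.3 ± 7.58 and 58.7 ± 7.56 (SD, n = 6). Obese tumor-associated IWAT held 1.51-fold more Vcan than lean (log2 0.60, SE 0.21, adjusted p = 0.0235). That call was lost in 4 of the 22 fits without 1 library, those without lean mouse 3 or 9 or obese mouse 0 or 8 (adjusted p = 0.0528 to 0.0712), and with upper-quartile normalization (log2 0.52, adjusted p = 0.0531). In control IWAT the diets differed by log2 -0.23 (SE 0.21, adjusted p = 0.493).

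Of 9 fibroblast genes 4 were called higher in tumor-associated IWAT in each diet (3.27% of all genes in lean, 26.8% in obese mice). In obese mice 1 of the 9 was called lower (27.7%). The obese medians of Col1a1, Col1a2, Col3a1, Thy1 and Dpp4 were higher in tumor-associated pads. Those of Dcn (540 against 901 CPM), Pi16 (80.6 against 121), Lum (179 against 215) and Pdgfra (251 against 257) were lower. Obese against lean tumor-associated IWAT had 3 of 9 called lower (22.4% of all genes) and 0 higher. The summed level of the 9 genes was 5678 to 8402, 12319 to 18445, 4742 to 10411 and 4862 to 17746 CPM in lean control, lean tumor-associated, obese control and obese tumor-associated IWAT, with the lowest obese tumor-associated value from mouse 4. Collagen genes made up most of the sum. Col3a1 alone had a median of 9012 CPM in obese tumor-associated IWAT, where the sum had a median of 14689 CPM. Vcan equalled 0.891% to 2.03% of that sum in lean control and 1.61% to 2.49% in lean tumor-associated IWAT, ranges that overlap, and 0.635% to 1.33% in obese control and 2.95% to 6.47% in obese tumor-associated IWAT, which do not. Tnfaip6 equalled 0.102% to 0.175% of it in lean control, 0.143% to 0.180% in lean tumor-associated, 0.0718% to 0.119% in obese control and 0.120% to 0.368% in obese tumor-associated IWAT. Mesothelial genes, listed because mesothelium is known for hyaluronan synthesis, summed to 0.676 to 5.46 CPM over 6 genes in obese tumor-associated IWAT and to 3.22 to 13.4 CPM in obese control IWAT, with Msln at 0.135 to 2.66 CPM in the former. The 2 mesothelial genes that could be tested were called lower in obese tumor-associated IWAT. Of 7 adipocyte genes 7 were called lower in obese tumor-associated IWAT, and of 8 epithelial genes 7, where 27.7% of all genes were called lower. In lean mice 0 of the 7 and 0 of the 8 were called lower, beside 0.913% of all genes. The part of fibroblasts in the Vcan and Tnfaip6 values was not tested.

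Between the diets, 1 of the 9 members, Cd44, was called in control IWAT, where 17.1% of all genes were called and 9.54% were called higher. In tumor-associated IWAT 4 of the 9 were called, all higher in obese mice (Has1, Cd44, Hmmr and Vcan), where 47.0% of all genes were called and 24.7% were called higher. Cd44 and Hmmr did not overlap between the diets there, as for 11.0% of all genes in that direction. The diet calls of Has1 and Cd44 come from the same libraries in which these genes were picked for their tumor rise. The difference between the obese and the lean tumor change was called for 0 of the 7 tested members by edgeR, where 4.92% of all genes were called. At an unadjusted p under 0.05 there were 2, Hmmr (log2 1.34, SE 0.61, adjusted p = 0.130) and Vcan (log2 0.83, SE 0.30, adjusted p = 0.0728), and DESeq2 called 1, Vcan (adjusted p = 0.0424), as did edgeR without obese tumor-associated mouse 1 (adjusted p = 0.0493). In those fits 15.9% and 24.7% of all genes were called. The differences of Tnfaip6 and Has2 were log2 0.75 (SE 0.46, adjusted p = 0.249) and 0.61 (SE 0.75, adjusted p = 0.585). An adjusted p above the threshold does not show that the tumor changes were alike in the diets.

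The rest of the hyaluronan pathway was followed in a list of 50 genes, of which 41 passed the filter and the other 9 had at most 26 counts in any library. In lean mice 3 of the 41 rose, or 7.32% beside 3.27% of all genes tested. In obese mice 16 rose and 5 fell, or 39.0% and 12.2%, beside 26.8% and 27.7% of all genes tested. The median log2 change of the 41 was 0.17 in lean and 0.31 in obese mice, against 0.01 and -0.02 over all genes.

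Other hyaluronan receptors were 2 of the 3 genes that rose in both diets. Lyve1, a hyaluronan receptor of lymphatic vessels and some macrophages, went from 21.3 to 60.9 CPM in lean control to 67.8 to 237 CPM in lean tumor-associated IWAT (log2 1.84, SE 0.50, adjusted p = 0.0413). In obese mice it rose by log2 2.03 (SE 0.46, adjusted p = 0.00111) with 23.4 CPM in mouse 4 and 128 to 297 CPM in the other 5 tumor-associated pads. The lean call was lost in 12 of the 22 fits without 1 library (log2 1.47 to 2.12), 9 of them without a lean library and 3 without obese control mouse 0 or obese tumor-associated mouse 0 or 1. Of the 3 other lymphatic endothelial genes, Pdpn differed by log2 0.91 (adjusted p = 0.153) in lean mice, while in obese mice Pdpn rose (log2 1.51, adjusted p = 0.000591), Flt4 fell (log2 -0.72, adjusted p = 0.0286) and Prox1 differed by log2 -0.56 (adjusted p = 0.417). The part of lymphatic vessels in the Lyve1 values was not tested. Stab1, a scavenger receptor of macrophages, rose by log2 1.24 (SE 0.28, adjusted p = 0.0164) and 1.27 (SE 0.26, adjusted p = 0.000550) in lean and obese mice, a lean call lost without lean control mouse 2 or lean tumor-associated mouse 0 or 2. Stab2, which clears hyaluronan in liver and lymph node sinuses, fell by log2 -2.12 (SE 0.73, adjusted p = 0.0186) in obese mice, from control values of 58.0 and 56.0 CPM in mice 1 and 3 and 3.42 to 9.16 CPM in the other 4. These 2 are the control libraries in which B and T cell genes stood apart, and without them the change was log2 -0.04 (adjusted p = 0.962).

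Of 8 genes for enzymes of the UDP-sugar precursors 4 rose in obese tumor-associated IWAT (26.8% of all genes), Ugdh, Gnpnat1, Uap1 and Uap1l1, by log2 0.31 to 0.71, and 4 were not called (Ugp2, Gfpt1, Gfpt2 and Pgm3). Gnpnat1 was higher in 4 of 6 mice. Its call was lost in 6 of the 22 fits without 1 library, those without obese control mouse 0 or 4 or obese tumor-associated mouse 0, 2, 4 or 8, and without both pads of mouse 4 (log2 0.18, adjusted p = 0.189). It was also lost with upper-quartile normalization (adjusted p = 0.0554), in the fit to the groups compared (adjusted p = 0.0611) and without the control pads of mice 1 and 3 (adjusted p = 0.0509). Ugdh, singled out after its values were seen, makes UDP-glucuronic acid and went from 75.8 ± 9.32 to 117 ± 24.8 CPM (SD, n = 6, log2 0.63, SE 0.13, adjusted p = 0.000631). Uap1, which makes UDP-N-acetylglucosamine, went from 93.4 ± 14.3 to 139 ± 41.8 CPM (log2 0.57, SE 0.17, adjusted p = 0.00700) and was, behind Crip1 (r = 0.913) and Pdlim1 (r = 0.910), the gene most like Has1 over the 22 libraries (r = 0.906). With the group means removed the correlation of Uap1 with Has1 was 0.842, and its lowest and highest obese tumor-associated values, 71.2 and 203 CPM, were those of mice 4 and 8, as for Has1. Adamts4, a protease that cuts versican and aggrecan, rose by log2 1.20 (SE 0.25, adjusted p = 0.00841) in lean and 2.01 (SE 0.23, adjusted p = 3.51e-06) in obese mice without overlap in either, and was the gene most like Vcan (r = 0.955, and 0.695 with the group means removed), before Dpysl2 (r = 0.952) and Gpr124 (r = 0.951). Gpr124 was also the gene most like Tnfaip6 (r = 0.901), followed by Plat (r = 0.899) and Tnfrsf1a (r = 0.883). For Cd44 the genes were Efhd2 (r = 0.976), Itga5 (r = 0.962) and LOC100038947 (r = 0.958). These correlations describe libraries that share groups and mice and carry no p.

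Among the 41 pathway genes the highest rises in obese mice were those of Spp1 and Cemip. Spp1, the CD44 ligand osteopontin, rose by log2 3.52 (SE 0.58, adjusted p = 8.22e-05), from 7.73 to 45.4 CPM in control to 40.2 to 390 CPM in tumor-associated pads, and was 1.16 to 14.8 CPM in lean tumor-associated IWAT. Cemip, a hyaluronan-degrading protein listed as 9930013L23Rik, rose by log2 2.49 (SE 0.74, adjusted p = 0.00772), from 0 to 3.72 CPM in control to 1.16 to 20.7 CPM in tumor-associated pads. The groups overlapped, and it was higher in 4 of 6 mice. Mouse 0 had the 20.7 CPM, against at most 7.59 CPM in the other 5 tumor-associated pads, and without that library the rise was log2 1.72 (adjusted p = 0.0421). Without the control pad of mouse 1 it was 3.27, and without those of mice 1 and 3, the highest controls, 4.46. Ncan (log2 -1.78, adjusted p = 0.0427), Itih5 (log2 -1.29, adjusted p = 0.00152) and Hapln3 (log2 -1.16, adjusted p = 0.0328), members of the hyalectan, heavy chain and link protein families, fell in obese mice. The calls of Ncan and Hapln3 were lost without both pads of mouse 4 (adjusted p = 0.187 and 0.0827), and in 8 and 5 of the 22 fits without 1 library, each of them an obese one. The fifth gene to fall was Adamts5, another versican protease (log2 -1.14, SE 0.31, adjusted p = 0.00461), in the opposite direction to Adamts4. The obese minus lean difference was called for 0 of the 41 by edgeR (4.92% of all genes), with 6 at an unadjusted p under 0.05. DESeq2 called 4 of the 41, where it called 15.9% of all genes.

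**Figure D5:**
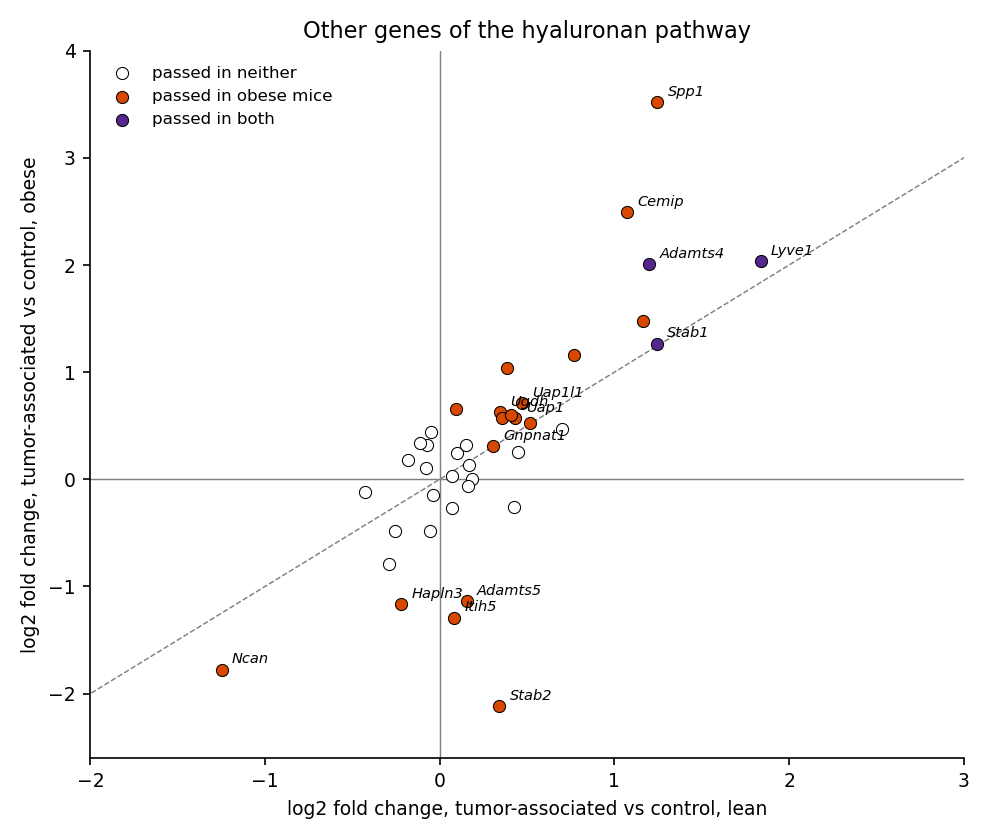
Tumor change on the log2 scale, tumor-associated over control pads, of the 41 other hyaluronan pathway genes tested, lean mice on the horizontal and obese mice on the vertical axis; the dashed line marks equal change. Lyve1, Stab1 and Adamts4 passed the test in both diets, and 18 further genes, among them Spp1 and Cemip above the line and Stab2, Itih5 and Adamts5 below it, passed in obese mice.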

How the data were processed

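Both pads of 5 lean and 6 obese mice gave 22 RNA-sequencing libraries. Per the labels and the study's methods, the authors depleted ribosomal RNA, checked and trimmed reads with FastQC and prinseq, mapped them to mm10 with STAR 2.4.0f, counted reads by HTSeq and deposited the counts without normalization; annotation and strand setting are not given in the sources used here. The 5 lines of the table that name no gene held 57.0% to 65.9% of reads and were left out. Counts were fitted with edgeR 4.0.16 (quasi-likelihood test, TMM, default filter by group, Benjamini-Hochberg adjustment, threshold 0.05) in R 4.3.3, with 4 groups and no block, since the study's methods name no paired test. Fold changes have SE from the fit, CPM use TMM totals, and log2 CPM for correlations a prior count of 2, over genes with a mean of at least 1 CPM. Both pads came from the same mouse per the labels. Their deviations from group means correlated with a median r of 0.508 (lean, over 0.1 in 5 of 5 mice) and 0.168 (obese, 4 of 6). The mouse as a block was an alternative, beside DESeq2 1.42.0, upper-quartile normalization, 2 other filters, the groups compared alone and each library left out. Leaving out mouse 4, and the control pads of obese mice 1 and 3, was chosen after seeing the data. The fit was tested on simulated data with 200 of 14458 genes changed and no mouse effect. It recovered 144 to 154 of the 200 in the comparisons of groups, with 2 to 11 false calls. For the obese minus lean difference it recovered 118, with 14 false calls. No 2 libraries were copies. Positions and exon lengths are from GENCODE M21 (mm10). The members and all gene lists were chosen with earlier results of these data known. All 9 members are named. Of the pathway list those called in a tumor comparison are named, at most the 4 largest rises and falls per diet. The 3 genes most like each of 5 members are named too, Uap1 among them. As pathway genes Ugdh, Gnpnat1, Uap1, Uap1l1 and Adamts5 were added after their values were seen, as were the lymphatic genes.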

Additional observations from a re-analysis of the deposited data

Results flagged for a closer look

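Of 36 groups (9 genes in 4 groups), 3 held a library that stood apart from the others by Dixon's test on log2 CPM. The level was 95%, where chance gives about 1 in 20. Has1 in lean tumor-associated IWAT was lowest in mouse 6, at 1.54 CPM against 5.83 to 6.68 CPM in the other 4. Hyal1 in obese tumor-associated IWAT was lowest in mouse 4, at 6.08 CPM against 13.0 to 18.4 CPM in the other 5. Cd44 in obese control IWAT was lowest in mouse 4 as well, at 87.2 CPM against 109 to 120 CPM. The log2 scale draws in high values. Has1 of obese tumor-associated mouse 8 was not flagged on it, at 65.1 CPM against 1.35 to 16.8 CPM in the rest of its group.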

How the results depend on the processing

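No member or named pathway gene called in a comparison changed its direction under any alternative. The number of members called ranged, over the fits without 1 library each, from 1 to 3 for the lean and 3 to 4 for the obese tumor comparison, 1 to 2 for obese against lean control, 2 to 4 for obese against lean tumor-associated IWAT and 0 to 1 for the difference of the tumor changes. For the pathway list the ranges were 1 to 5, 18 to 22, 7 to 13, 11 to 18 and 0 to 4. The obese against lean control count of members, 1, became 2 in the fit to the groups compared and without mouse 4, where Hyal1 was added, and 0 without the control pads of obese mice 1 and 3, where the pathway count went from 10 to 6. The obese against lean tumor-associated count of members went from 4 to 2 with at least 10 counts in every library, a filter that left 6 members, and that of the pathway from 14 to 8 in the fit to the groups compared. The lean pathway count of 3 became 10 in that fit, 5 with the mouse as a replicate block and 5 without mouse 4, where 10.5%, 4.63% and 6.42% of all genes were called, against 4.18%. The difference gave 1 member and 4 pathway genes with DESeq2, which called 15.9% of all genes against 4.92%, 1 pathway gene with the filter of 10 counts and 1 without the control pads of obese mice 1 and 3. The cause of these shifts was not tested beyond the fewer genes or libraries named. Among single calls, Hmmr in lean mice was lost without a filter (adjusted p = 0.0520) and without those control pads (0.0525), and Has1 between the diets in the fit to the groups compared (adjusted p = 0.0943). The block changed no call of a member. The fit to the groups compared cannot give the difference, which needs all 4. Of the 3 genes most like each member, 0 were found again for Has1, Cd44, Tnfaip6 and Vcan once the group means were removed; by rank correlation 0 were found again for Cd44 and 1 each for Hmmr, Tnfaip6 and Vcan. Has1 and Has3, with 0 to 7 and 6 to 20 counts in lean control libraries, are the members that depth limits most.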
